A study of Rattus norvegicus with 6 samples.

Results

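This account covers 8 genes of cellular sterol traffic in UMR106-01 cells, an osteoblast-like line from a rat osteosarcoma, with and without an inhibitor of serine proteases. The genes are the cholesterol efflux transporters Abca1 and Abcg1, the high-density lipoprotein (HDL) receptor Scarb1, the lysosomal cholesterol exporters Npc1 and Npc2, the oxysterol receptors Nr1h3 and Nr1h2 (LXR alpha and LXR beta) and the LXR target Lpcat3. They were chosen by name, and a probe set was taken as a member's own where the platform annotation gave it exactly 1 gene symbol. By that rule 15 of the 31099 probe sets on the array belonged to 7 of the 8 genes, and Npc1 was not analysed here. Of these, 11 probe sets of 6 genes were bright enough to be tested, and Nr1h3 was not.

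All 6 cultures were plated at 100000 cells per cm2, with 10% fetal bovine serum in the medium, re-fed at 64 h with beta-glycerol phosphate at 6.5 mM, from which cells release phosphate for mineral, and collected at 76 h. In 3 of them, called mineralizing, nothing else was added. The other 3 had AEBSF at 400 µM for the last 12 h, a small molecule that inactivates serine proteases covalently. Each culture gave 1 Affymetrix array of MAS5 signals, so every culture carries the same cell line, serum and phosphate source, and no culture without beta-glycerol phosphate was compared. The cell line is a tumour line, and lipoproteins reach it from the serum.

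Cholesterol leaves cells through ATP-binding cassette transporters. ABCA1 passes cholesterol and phospholipid to lipid-poor apolipoprotein A-I, and ABCG1 passes cholesterol to HDL particles. SR-B1, the product of Scarb1, binds HDL and takes up its cholesteryl esters, and it can also let cholesterol flow out to HDL. Cholesterol that enters by endocytosis is freed in lysosomes, where NPC2 carries it in the lumen and hands it to the membrane protein NPC1. The LXR receptors bind oxysterols as partners of the retinoid X receptors and switch on Abca1, Abcg1, Lpcat3 and other genes when cell sterol is high. The SREBP factors, which turn on cholesterol synthesis when sterol is low, are released by the site-1 protease, one of the enzymes blocked by AEBSF.

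Abca1 and Lpcat3 fell with AEBSF, and their promoter windows are shown because these are the members whose transcripts fell. The sequences are the 250 bases before the gene start in RefSeq, build GRCr8, printed 5′ to 3′ on the gene's strand. Abca1 lies on the minus strand at chr5:72596474-72596723, and Lpcat3 on the plus strand at chr4:159154440-159154689. Capitals mark matches to the motifs described after the sequences.

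Abca1: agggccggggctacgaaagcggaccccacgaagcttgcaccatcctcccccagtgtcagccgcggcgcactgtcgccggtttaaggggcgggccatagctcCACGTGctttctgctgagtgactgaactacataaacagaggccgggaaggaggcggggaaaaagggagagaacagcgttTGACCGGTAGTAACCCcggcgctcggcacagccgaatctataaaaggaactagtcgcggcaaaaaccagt

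Lpcat3: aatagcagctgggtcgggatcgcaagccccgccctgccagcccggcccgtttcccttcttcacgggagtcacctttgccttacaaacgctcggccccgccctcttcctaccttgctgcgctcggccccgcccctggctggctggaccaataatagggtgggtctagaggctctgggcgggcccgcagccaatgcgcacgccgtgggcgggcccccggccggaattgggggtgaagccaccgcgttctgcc

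The window searched also held the 50 bases after the start, on both strands, in the 5 members with an entry in the RefSeq promoter table (Abca1, Lpcat3, Nr1h2, Nr1h3 and Npc2). The LXR response element is a direct repeat of AGGTCA with 4 bases between the copies, known as DR4. With up to 2 mismatches over the 12 repeat bases, 0 of the 5 windows held a match to this repeat, and 2.93% of all 33469 promoter windows of that length did. With up to 3 mismatches, a limit chosen after seeing the sequences, the Abca1 and Npc2 windows held a match, as did 21.9% of all windows. In Abca1 this match lies on the opposite strand, from 70 to 55 bases before the start, and reads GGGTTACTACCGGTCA. A count of mismatches does not show whether LXR binds a site, and binding was not tested. The Abca1 window also held CACGTG, the E-box core, from 149 to 144 bases before the start, a motif in 6.42% of all windows. The AGGTCA motif alone was in 16.2% of all windows and, of the 5, in that of Npc2, where it overlaps the DR4 match. The sterol response element TCACNCCAC was in 1.12% of all windows and in none of the 5. The Lpcat3 window held no match to any of these motifs, so it is printed without capitals.

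Technical measures of the arrays were close in part. The trimmed mean signal (2% left out at each end) was 500.15 or 500.16 throughout. The deposited signals share this value, so it cannot show that the arrays were alike. The median signal ran from 127 to 136. The ratio of the 3′ to the 5′ probe set of GAPDH, a sign of RNA quality, was 1.02 to 1.06 in mineralizing and 1.05 to 1.08 in AEBSF arrays. For beta-actin it was 1.52 to 1.54 and 1.46 to 1.61. Measured against the probe sets for hybridization controls, the groups differed. The median log2 fold change of all tested probe sets, AEBSF minus mineralizing, was then -0.13. All 8 osteoblast markers with a probe set were above the filter. Their summed signal was 29317 to 30924 in mineralizing and 26643 to 27818 in AEBSF arrays. Of the 8, 3 fell, Phex from 2725 to 1645, Col1a1 from 982 to 617 and Col1a2 from 3334 to 1534 (limma adjusted p = 3.36e-05, 0.00116 and 1.27e-05). Of all tested genes, 9.22% were lower. Ibsp, the brightest osteoblast marker, stood at 16520 and 17101, and Alpl at 2186 and 2113. Neither passed, nor did Spp1, Sparc or Pth1r. Of 10 macrophage markers, 9 lay below the signal filter of 67.2. Their summed signal was 423 to 488 in mineralizing and 338 to 355 in AEBSF arrays, and none was at 0. Csf1r, the macrophage growth factor receptor and the 1 marker above the filter, stood at 120 ± 50.3 and 92.9 ± 6.45 and did not pass. Adgre1 and Itgam, surface markers of macrophages, stood at 13.8 and 6.83 in mineralizing and 3.78 and 4.98 in AEBSF cultures. The means of Cd68, C1qa, C1qb and Aif1 were also lower with AEBSF. Those of Cd14 (31.4 and 45.7) and Ptprc (10.4 and 16.1) were higher, and that of Lyz2 was level (36.2 and 35.9). Markers below the filter were not tested. The part of the osteoblast and macrophage signals in the results was not tested. Of 5 hepatocyte and 5 adipocyte markers, 3 and 4 lay below the filter, and the range of each list's summed signal overlapped between the groups (305 to 391 and 282 to 356 for hepatocytes, 144 to 206 and 166 to 203 for adipocytes).

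With AEBSF, Abca1 and Lpcat3 fell, Scarb1 rose, and Abcg1, Nr1h2 and Npc2 did not pass the test. Of the 6 tested members 3 thus passed a limma adjusted p of 0.05, 2 lower and 1 higher, against 16.3% of all 9864 tested genes, of which 9.22% were lower and 7.09% higher. In RNA from whole cultures, fewer cells of a kind and less RNA per cell cannot be told apart. The median log2 fold change of the 6 was -0.03, and that of all genes was 0.002. By probe set, 8 of 11 passed, 6 lower and 2 higher, against 13.4% of 18625 tested probe sets, where 7.41% were lower and 5.99% higher. Probe sets of 1 gene read the same transcripts and are not independent. Abca1, Lpcat3 and Scarb1 were known to differ in these data when the list was drawn up.

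Abca1 was lower in every AEBSF culture. Its brightest probe set (1383355_at) read 641, 574 and 621 in mineralizing cultures 1, 2 and 3, and 381, 407 and 403 in AEBSF cultures 1, 2 and 3. The lowest mineralizing culture was thus above the highest AEBSF culture. The means were 612 ± 34.5 and 397 ± 13.9 (SD, n = 3 cultures each), a 1.54-fold fall (log2 fold change -0.62, SE 0.09, 95% interval -0.82 to -0.43, limma adjusted p = 0.00117). Of the 9864 tested genes, 193 had a lower log2 fold change than Abca1.

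The other 3 probe sets of Abca1 gave falls of like size. The next brightest (1382431_at) read 498, 511 and 580 against 348, 344 and 394 (-0.55 on the log2 scale, SE 0.10, limma adjusted p = 0.0054). The third (1384381_at) read 204, 182 and 206 against 143, 102 and 144 (-0.62, SE 0.18, limma adjusted p = 0.0379). The dimmest (1394490_at) read 245, 176 and 168 against 128, 108 and 140 (-0.64, SE 0.19, limma adjusted p = 0.0444). In none of the 4 did the groups overlap, as in 32.7% of all tested probe sets, and the wider errors belong to the dimmer probe sets. Among the 215 genes with 4 or more tested probe sets, Abca1 was the 1 gene for which all of them passed in the same direction.

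The calls of the dimmer pair of Abca1 probe sets were lost with no signal filter (limma adjusted p = 0.0772 and 0.0911), with a constant variance prior (0.0657 and 0.0835) and without most of the arrays. Leaving out mineralizing culture 1, 2 or 3 or AEBSF culture 1 or 2 ended the call of the third (adjusted p in limma 0.117, 0.0743, 0.106, 0.0513 and 0.0964) and that of the dimmest (0.185, 0.078, 0.0541, 0.0862 and 0.112). The brightest kept its call without each array in turn, with log2 fold changes from -0.67 to -0.59.

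**Figure D1:**
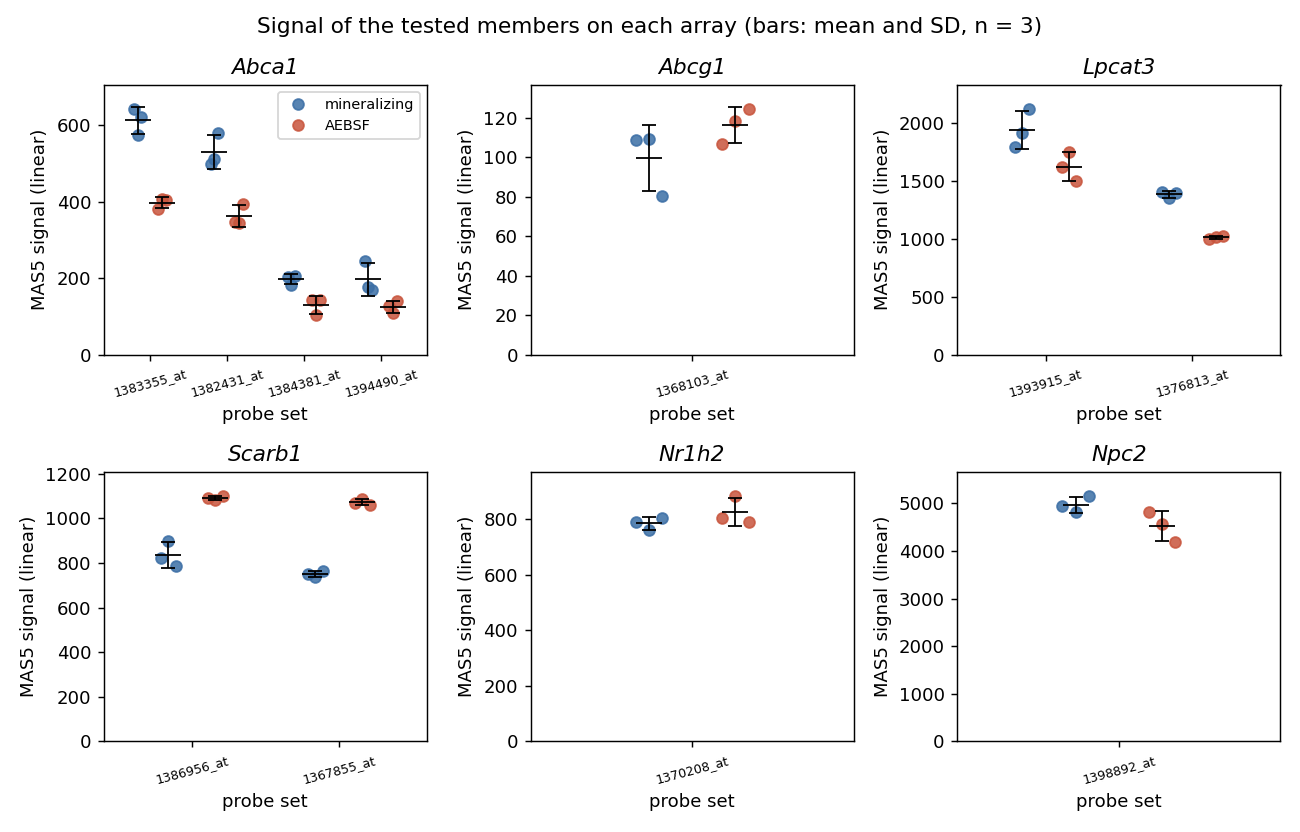
MAS5 signal on a linear scale (y axis) for each tested probe set of the 6 tested genes (x axis), with 1 point per culture, mineralizing in blue and AEBSF in red, and bars for the mean and SD of 3 cultures. All 4 Abca1 and both Lpcat3 probe sets are lower in AEBSF cultures and both Scarb1 probe sets are higher, with no overlap between the groups, while Abcg1 and Nr1h2 overlap.

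Abcg1, the other efflux transporter, was dim and did not pass. Its single tested probe set (1368103_at) read 109, 109 and 80.2 in mineralizing cultures 1, 2 and 3 and 107, 118 and 124 in AEBSF cultures 1, 2 and 3. The groups overlapped, and the mineralizing spread came mainly from culture 3, the lowest of the 6. The means were 99.4 ± 16.6 and 116 ± 8.94 (log2 fold change 0.24, SE 0.20, 95% interval -0.20 to 0.68, limma adjusted p = 0.481). Without mineralizing culture 3 the log2 fold change was 0.09 (limma adjusted p = 0.835). The interval over all cultures does not reach the fall of 0.62 seen for Abca1. A pair of dimmer Abcg1 probe sets lay below the filter, at 57.9 ± 14.9 and 60.04 ± 18.6 for one and 28.4 ± 19.5 and 25.7 ± 4.09 for the other, and were not tested.

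Lpcat3 encodes a lysophospholipid acyltransferase that puts polyunsaturated chains into membrane phospholipids, and both of its probe sets fell. The brighter (1393915_at) read 1787, 1911 and 2115 in mineralizing cultures 1, 2 and 3 and 1622, 1744 and 1499 in AEBSF cultures 1, 2 and 3. The groups did not overlap, but the gap between mineralizing culture 1 and AEBSF culture 2 was narrow. The log2 fold change was -0.26 (SE 0.08, 95% interval -0.42 to -0.09, limma adjusted p = 0.0466), a 1.19-fold fall from 1937 ± 166 to 1622 ± 123.

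The dimmer Lpcat3 probe set (1376813_at) separated the groups more clearly. It read 1406, 1351 and 1396 against 995, 1013 and 1023, so that each group was tight and the ranges lay far apart. The fall was 1.37-fold, from 1384 ± 29.4 to 1010 ± 14.3 (log2 fold change -0.45, SE 0.06, 95% interval -0.59 to -0.32, limma adjusted p = 0.000866). Leaving out mineralizing culture 2, mineralizing culture 3, AEBSF culture 1 or AEBSF culture 3 ended the call of the brighter probe set (adjusted p in limma 0.106, 0.167, 0.0963 and 0.121), as did 5 other alternatives (0.0562 to 0.158). The call of the dimmer held in all 16 alternatives run, where its adjusted p in limma was at most 0.0208. 

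Scarb1 moved the other way. Its brighter probe set (1386956_at) read 823, 901 and 789 in mineralizing cultures 1, 2 and 3 and 1090, 1085 and 1100 in AEBSF cultures 1, 2 and 3. Every AEBSF culture was above every mineralizing culture, and the AEBSF values were the tighter. The rise was 1.31-fold, with means of 837 ± 57.4 and 1092 ± 7.51 (log2 fold change 0.38, SE 0.07, 95% interval 0.23 to 0.54, limma adjusted p = 0.00527).

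The second Scarb1 probe set (1367855_at) rose as well. It read 752, 735 and 764 against 1071, 1088 and 1061 (log2 fold change 0.52, SE 0.07, limma adjusted p = 0.000665), a 1.43-fold rise with no overlap. Of the 9864 tested genes, 369 had a higher log2 fold change than Scarb1. Among 2180 genes with 2 tested probe sets, as Lpcat3 and Scarb1 have, both passed in the same direction in 4.86%, with 59 genes lower and 47 higher.

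The rise of Scarb1 is relative to the rest of the array. Scaling the arrays to their 18 probe sets for hybridization controls brought the median of all tested probe sets to -0.13 in log2 fold change. On that scale the brighter Scarb1 probe set stood at 0.24 and no longer passed (limma adjusted p = 0.138), while the other had 0.37 and did (0.0228). They lay 0.37 and 0.50 above that median. The 4 Abca1 probe sets lay 0.56 to 0.65 below it, with log2 fold changes of -0.78 to -0.70, and both Lpcat3 probe sets passed there too (-0.40 and -0.60).

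**Figure D2:**
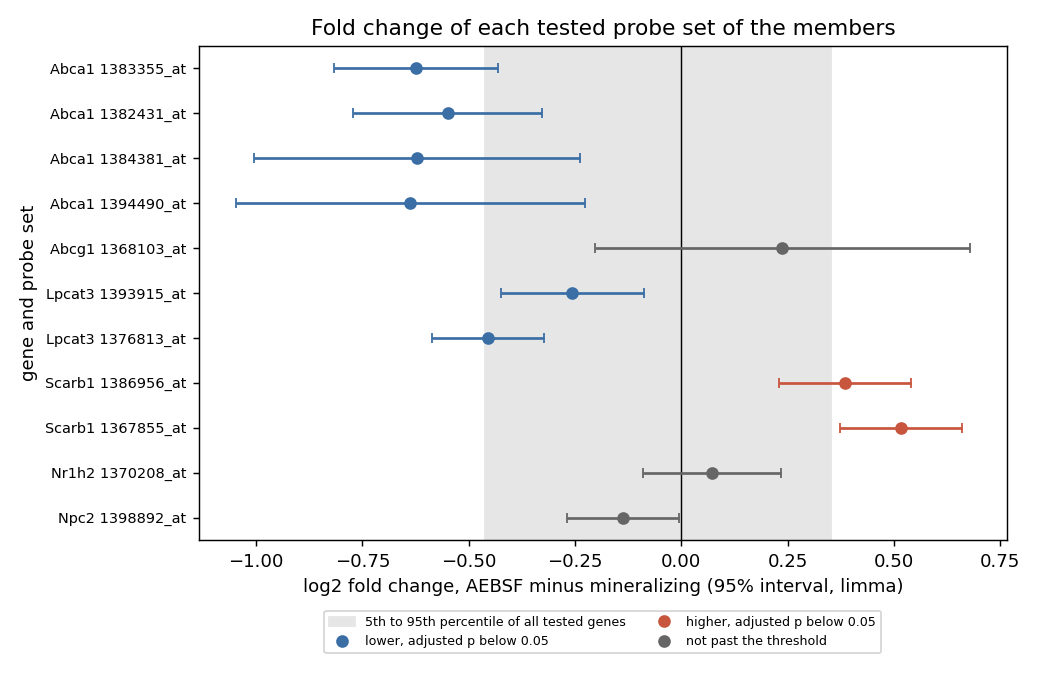
Log2 fold change of AEBSF minus mineralizing (x axis) with its 95% interval from limma for the 11 tested probe sets of the members (y axis), blue where lower and red where higher past an adjusted p of 0.05, grey otherwise. The shaded band spans the 5th to the 95th percentile of all tested genes, -0.46 to 0.35: the 4 Abca1 points lie to its left and both Scarb1 points to its right.

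The transcript of LXR beta did not pass, and that of LXR alpha was too dim to compare. Nr1h2 (1370208_at) read 789, 759 and 804 in mineralizing cultures 1, 2 and 3 and 804, 882 and 789 in AEBSF cultures 1, 2 and 3. The groups overlapped, with AEBSF culture 2 the highest. The means were 784 ± 23.1 and 825 ± 49.97 (log2 fold change 0.07, SE 0.07, 95% interval -0.09 to 0.23, limma adjusted p = 0.571), and the sign turned with the arrays scaled to hybridization controls (-0.07, limma adjusted p = 0.732). A second probe set of Nr1h2 lay below the filter, with signals from 1.74 to 29.9 over the 6 cultures. Nr1h3 (1387365_at) read 31.4, 9.55 and 24.6 against 31.6, 22.5 and 33.4, all below the filter, and was not tested.

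Npc2, the lysosomal lumen protein, did not pass. Its probe set (1398892_at) read 4941, 4823 and 5151 in mineralizing cultures 1, 2 and 3 and 4816, 4576 and 4188 in AEBSF cultures 1, 2 and 3. The groups did not overlap, but mineralizing culture 2 and AEBSF culture 1 almost met. The means were 4972 ± 166 and 4527 ± 317 (log2 fold change -0.14, SE 0.06, 95% interval -0.27 to -0.01, limma adjusted p = 0.16), which did not pass. With the arrays scaled to hybridization controls it did (log2 fold change -0.28, limma adjusted p = 0.044), 0.15 below the median of all probe sets there. Without AEBSF culture 3, the lowest, the log2 fold change was -0.08 (limma adjusted p = 0.393). Together with Abca1, Lpcat3 and Scarb1, Npc2 made 4 of 6 tested members whose groups did not overlap, as did 36.1% of all tested genes.

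Set side by side, 1 of the tested efflux transporters fell and the other did not pass, and on the uptake and lysosomal side Scarb1 rose and Npc2 did not pass. The mean log2 fold change was -0.19 over Abca1 and Abcg1 and 0.12 over Scarb1 and Npc2, a difference of -0.32 that is given as a description with no test. Array by array, relative to the mineralizing mean, this difference was 0.12, -0.003 and -0.12 in mineralizing cultures 1, 2 and 3 and -0.45, -0.29 and -0.21 in AEBSF cultures 1, 2 and 3. All 3 AEBSF cultures lay below the 3 mineralizing ones. The difference holds Abca1 and Scarb1, which were known to differ when the list was drawn up, so this gap is no added evidence. When the probe sets of each gene were averaged, Abcg1 lay below the filter and was not tested, and the value for Abca1 alone against Scarb1 and Npc2 was -0.76.

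Between single genes the contrast was widest for Abca1 and Scarb1, the tested members with the lowest and the highest log2 fold change. That follows from how the pair was picked, and both were known to differ when the list was drawn up. The log2 fold change of Abca1 minus that of Scarb1 was -1.01, with an SD between cultures of 0.17 in mineralizing and 0.05 in AEBSF cultures. By culture, relative to the mineralizing mean, it was 0.09, -0.20 and 0.11 without and -1.06, -0.963 and -0.996 with AEBSF. The gap between the groups follows from that of each gene and is no added evidence. Abca1 minus Npc2 was -0.49 (SD 0.07 and 0.14), and Abca1 minus Abcg1 was -0.86 (SD 0.29 and 0.07). Abcg1 minus Scarb1, at -0.15 (SD 0.19 and 0.11), was within the mineralizing spread.

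**Figure D3:**
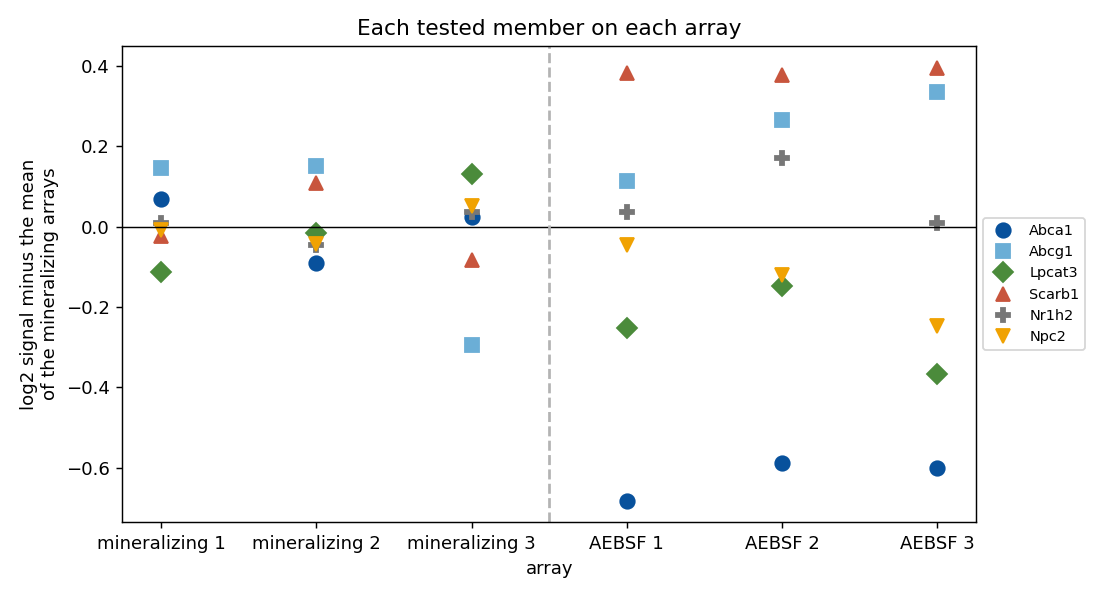
Log2 signal of each tested member minus its mean over the mineralizing arrays (y axis) on each of the 6 arrays (x axis), with 1 symbol per gene. On the AEBSF arrays Abca1 lies between -0.68 and -0.59 and Scarb1 between 0.38 and 0.40, with Lpcat3 and Npc2 below 0 and Abcg1 above it.

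Most other genes of sterol handling did not pass. Of 93 genes in 6 lists, 61 were tested, of which 1 rose, 3 fell and 57 did not pass, or 6.56% past the threshold against 16.3% of all genes. Their median log2 fold change was -0.01. The 4 that passed were Pltp, Lrp1, Lrp8 and Ebp.

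In the list of other LXR targets and lipid efflux genes, 1 of 10 tested genes fell and 0 rose, with a median log2 fold change of -0.09. That is 10% past the threshold, against 16.3% of all tested genes. Pltp, the phospholipid transfer protein of HDL remodelling, read 6463, 6230 and 5982 in mineralizing cultures 1, 2 and 3 and 4815, 5871 and 5133 in AEBSF cultures 1, 2 and 3. The groups were close but did not overlap (log2 fold change -0.24, SE 0.07, limma adjusted p = 0.0402). Leaving out any culture but AEBSF culture 2 ended that call (for mineralizing cultures 1, 2 and 3 and AEBSF cultures 1 and 3, adjusted p in limma 0.132, 0.109, 0.0553, 0.138 and 0.0935). Fasn, the fatty acid synthase, had 2 probe sets above 0: the brighter stood at 2212 ± 68.5 and 2524 ± 173 (log2 fold change 0.19, limma adjusted p = 0.0683), and the other passed (0.39, limma adjusted p = 0.00815). Srebf1 and Apoe, named after their values were seen because they are standard LXR targets, did not pass. Srebf1 stood at 655 ± 102 and 823 ± 51.6 and Apoe at 175 ± 18.7 and 168 ± 16.2 (log2 fold change 0.34 and -0.06, limma adjusted p = 0.0523 and 0.844). The dimmer tested probe set of Srebf1 stood at 304 ± 20.8 and 290 ± 32.5, with the opposite sign (log2 fold change -0.07, limma adjusted p = 0.757). Abcg5, Abcg8 and Cyp7a1, LXR targets of liver and intestine, lay below the filter.

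Of 13 tested partners and coregulators of LXR, 0 passed in limma, and 1 had an unadjusted p below 0.05, as had 31.9% of all tested genes. Tbl1x and Tbl1xr1, subunits of the nuclear corepressor complex, were the brightest, with log2 fold changes of 0.09 and 0.12 (95% intervals -0.10 to 0.28 and -0.03 to 0.28, limma adjusted p = 0.556 and 0.295). Rxra and Rxrb, the retinoid X receptors, were named after their values were seen. Rxra stood at 79.8 ± 23.0 and 99.7 ± 5.38, and Rxrb at 217 ± 19.1 and 224 ± 42.0 (limma adjusted p = 0.369 and 0.919).

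Among 6 tested genes of lipoprotein uptake, 1 rose and 1 fell, in a list to which Scarb1 was not counted. Lrp1, a large endocytic receptor for apolipoprotein E-rich particles, read 1476, 1252 and 1288 in mineralizing cultures 1, 2 and 3 and 825, 646 and 700 in AEBSF cultures 1, 2 and 3. The groups were far apart, with a 1.85-fold fall (log2 fold change -0.89, SE 0.10, limma adjusted p = 0.000261). A second Lrp1 probe set was below the filter, at 28.0 ± 36.1 and 24.2 ± 19.2, and averaging it in ended the call (limma adjusted p = 0.766). Lrp8, the receptor for reelin and apolipoprotein E, rose 1.54-fold, with means of 419 ± 54.0 and 642 ± 35.9 (log2 fold change 0.62, SE 0.11, limma adjusted p = 0.00348). Of 4 tested probe sets of Vldlr, a lipoprotein receptor named after its values were seen, 1 that was not the brightest passed, lower (log2 fold change -0.25, limma adjusted p = 0.0417). At the brightest probe sets and counting Scarb1, 2 receptors on the uptake side rose and 1 fell. Scarb1 was known to differ when the list was drawn up. Of all tested genes, 7.09% were higher and 9.22% lower.

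Of 16 tested genes of lysosomal sterol handling and sterol transfer, 0 passed in limma at their brightest probe set, and 4 had an unadjusted p below 0.05, against that 31.9%. The lysosomal membrane protein gene Lamp1 stood at 6481 ± 250 and 7030 ± 233 and the late endosome GTPase gene Rab7a at 5502 ± 240 and 5847 ± 148 (log2 fold change 0.12 and 0.09, limma adjusted p = 0.167 and 0.302). The list median was -0.04. A dimmer probe set passed for Lamp2, a lysosomal membrane protein, and was lower (log2 fold change -0.24, limma adjusted p = 0.038). For the oxysterol-binding protein relative Osbpl2 a dimmer probe set passed as well and was higher (0.40, limma adjusted p = 0.0401). At the brightest probe set Lamp2 had -0.15 and Osbpl2 -0.02 (limma adjusted p = 0.113 and 0.896). Both genes were named after their values were seen.

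Sterol esterification and oxysterol genes gave 1 fall among 6 tested, or 16.7% past the threshold against 16.3% of all tested genes. Ebp, a sterol isomerase of cholesterol synthesis, had signals of 528 ± 44.4 and 399 ± 19.3, a fall (limma adjusted p = 0.019, log2 fold change -0.40, SE 0.10), which no longer passed once mineralizing culture 1, mineralizing culture 2 or AEBSF culture 1 was left out (adjusted p in limma 0.0917, 0.0653 and 0.0585). Soat1, which esterifies cholesterol for storage, stood at 2710 ± 29.2 and 2638 ± 283 (log2 fold change -0.04, limma adjusted p = 0.73). The enzymes that make oxysterols, Ch25h, Cyp27a1 and Cyp46a1, were below the filter.

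Lpcat3 was set beside 10 other tested acyltransferases of phospholipids, of which 0 passed in limma and 4 had an unadjusted p below 0.05, against 31.9% of all tested genes. Mboat1, of the same family, stood at 917 ± 40.5 and 832 ± 26.9 and Agpat5, an acyltransferase of phospholipid synthesis, at 750 ± 52.0 and 892 ± 109 (log2 fold change -0.14 and 0.25, limma adjusted p = 0.218 and 0.115). Their list median was 0.13, against log2 fold changes of -0.26 and -0.45 for the Lpcat3 probe sets, and 6 of the 10 lay above 0. Agpat4, named after its values were seen, had -0.29 (limma adjusted p = 0.1), lower than the brighter Lpcat3 probe set.

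**Figure D4:**
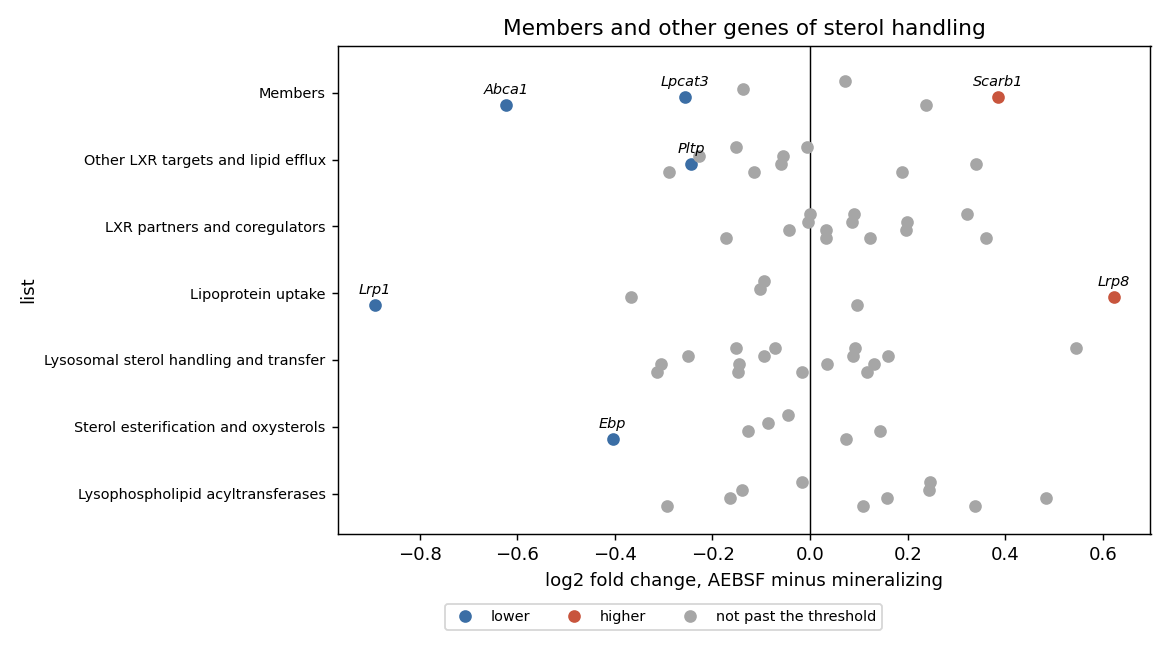
Log2 fold change of AEBSF minus mineralizing (x axis) for the members and for the tested genes of 6 lists of sterol handling (y axis), 1 point per gene at its brightest probe set, blue where lower and red where higher past a limma adjusted p of 0.05. Of the 61 genes outside the members, Pltp, Lrp1, Ebp and Lrp8 are coloured; vertical offsets within a list carry no meaning.

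The genes most like each changed member over the 6 arrays were found by Pearson correlation of log2 signal, given as a description. The points share 2 groups of cultures, so a high value can reflect the difference between them. For Abca1 they were Aktip, Nrn1 and Mvb12a (r = 0.997, 0.995 and 0.994), of which Nrn1 and Mvb12a fell with log2 fold changes of -0.99 and -0.29, while Aktip, at -0.16, did not pass (limma adjusted p = 0.155). For Lpcat3 they were Samd14, Tmem254 and Brox (r = 0.993, 0.992 and 0.991), and for Scarb1 they were Uck1, Crebzf and Slc48a1 (r = 0.991, 0.991 and 0.990). All 3 of the latter rose, with log2 fold changes of 0.45, 0.52 and 0.44, and Tmem254 fell by 0.31, while Samd14 (-0.61) and Brox (-0.10) did not pass (limma adjusted p = 0.0895 and 0.268). A correlation above 0.9 with Abca1 was found for 738 tested genes outside the lists, with Lpcat3 for 211 and with Scarb1 for 433.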

How the data were processed

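RNA of 6 cultures was measured on 1 Affymetrix rat array each. The deposited values are intensities, 1 for each probe set and array, and the submitters' processing notes name MAS5 and GCOS. Versions and settings: not given in the sources used here. Signals are linear and share a trimmed mean, so they do not show total RNA per cell. Groups and replicate numbers came from the sample titles, and the design text calls the samples triplicate cultures.

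Of 31042 probe sets other than 57 controls, 20826 had exactly 1 symbol in the platform annotation, 436 had several and 9780 were unnamed here. Log2 signals, with no constant added, were fitted in R 4.3.3 with limma 3.58.1 (lmFit, eBayes with trend) for AEBSF minus mineralizing. Tested were 18625 probe sets with mean log2 signal above the 40th percentile (a signal of 67.2), and p-values were adjusted by Benjamini-Hochberg over all of them. A gene was represented by its brightest probe set over all 6 arrays. The method was tested on simulated data. Depth has no count here: 3 arrays per group limit the precision.

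Named genes were all members, list genes past the threshold (or the 2 brightest where fewer than 2 passed) and the 3 genes most correlated with each changed member. Exceptions are stated. The members and lists were chosen with earlier results of these data known. Replicate numbers did not pair the cultures: deviations from the group means of same-numbered arrays correlated at 0.01, -0.12 and -0.04. Promoter sequences are from RefSeq, GRCr8. Of the 8 members, 5 had one that was used.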

Additional observations from a re-analysis of the deposited data

How the results depend on the processing

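Across 17 alternatives, the brightest Abca1 probe set kept its direction and its call, with log2 fold changes from -0.77 to -0.55 and limma adjusted p of at most 0.0191. Nr1h2 (-0.07 to 0.10) passed in none of the 17, and Abcg1 (0.09 to 0.31) in none of the 15 in which it was above the filter. Lpcat3 no longer passed after quantile normalization (-0.25), median centring (-0.26), with no signal filter (-0.26), with a constant variance prior (-0.26) and with the replicate number as a block (-0.26, limma adjusted p = 0.079); without 1 culture its values ran from -0.31 to -0.19. With the arrays scaled to hybridization controls Scarb1 lost its call (0.24) and Npc2 gained one (-0.28), and without 1 culture Scarb1 ran from 0.34 to 0.44. The difference between efflux and uptake with lysosomal export was -0.76 with all probe sets of a gene averaged, where Abcg1 was not tested and Abca1 alone stands for efflux, and -0.38 to -0.25 without 1 culture. Probe sets past the threshold numbered 2495, 885 with a constant variance prior, 1802 with the replicate block, 2576 (119 higher and 2457 lower) with the hybridization scaling and 1200 to 2250 without 1 culture. Members with a DR4 match numbered 2 with up to 3 mismatches, against 0. The block changed no other member's call at its brightest probe set, ended that of the dimmest Abca1 probe set and that of Pltp (limma adjusted p = 0.0583 and 0.0573), and no culture correlated best with its own number. Signal near background limits Abcg1 and Nr1h3.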
